A study of Homo sapiens with 16 samples.

Results

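Genes that the ERK pathway switches on, 10 of the 27467 genes listed in either of the deposited expression tables, were followed through all 10 RNA libraries of the series. They were chosen by name: the phosphatases DUSP4, DUSP5 and DUSP6, the Sprouty and SPRED inhibitors SPRY2, SPRY4, SPRED1 and SPRED2, and the transcription factors ETV4, ETV5 and EGR1. The series asked how far an XIST cDNA silences genes around the place where it is inserted. All cells were HT1080, a human fibrosarcoma line in which NRAS is activated, carrying a constitutive Tet repressor and a single FRT site. At that site a clone held a full-length XIST cDNA that doxycycline (DOX) switches on, or an empty vector.

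In the 8p clones the XIST cDNA lay in AGPAT5 on the short arm of chromosome 8, in the 1p clone in MACF1, and in the 12q clone in FAM222A. The first table, from a HiSeq instrument, held 8p No DOX (1 library), 8p with 5 days of DOX (2 libraries), 1p with DOX (1), the 1p empty vector pcDNA5 with DOX (1) and 12q with DOX (1). The second table, from a NextSeq instrument, held 1p No DOX, 1p DOX, 12q No DOX and 12q DOX (1 each). Each library came from a clone, so that a difference between clones also holds whatever else set them apart. The 12q clone came from another Tet repressor subclone than the 1p and 8p clones, and the study's methods give the 2 8p DOX libraries as 2 clones and 8p No DOX as 1. One of the 8p clones with DOX thus has no library without it, and the labels do not say which. The 12q titles differ between the tables, and the study lists several independent 12q clones. Whether the 12q libraries, or the 1p libraries with XIST, all share a clone is not stated. Below, the 12q clone and the 1p clone stand for the libraries with XIST at that site. The tables were made separately, and FPKM were compared only within a table. Where log2 differences from the 2 tables are set side by side, this is said.

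ERK is the last kinase of the RAS, RAF and MEK cascade, through which growth factor receptors drive division. Active ERK enters the nucleus and switches on immediate early genes such as EGR1, and the genes of its own inhibitors. DUSP proteins remove the phosphates from ERK, Sprouty and SPRED proteins act on the steps above it, and the level of these transcripts is widely read as the output of the pathway.

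XIST was listed at 3.38 FPKM in 8p No DOX and at 99.0 and 89.7 in 8p DOX. FPKM count fragments relative to the length of the transcript and to the size of the library. In the NextSeq table XIST went from 4.17 to 22.0 FPKM in the 1p clone and from 3.75 to 67.6 in the 12q clone, and the 1p vector library was at 0.0705. Between 10975 and 11399 genes reached 1 FPKM in a library. The depth of the libraries is unknown, since the tables hold no read counts. Of 6 mesenchymal markers 5 were at or above 1 FPKM in all 10 libraries, with THY1 as the exception, and 4 blood markers summed to at most 0.227 FPKM.

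Among the phosphatases, DUSP5 was the most abundant in the NextSeq table and in 4 of the 6 HiSeq libraries. DUSP4, a nuclear phosphatase that acts on ERK and other MAP kinases (chr8:29246498-29264186 on hg18), was listed at 54.1 FPKM in 8p No DOX, 55.3 and 50.4 in 8p DOX, 34.1 in 1p DOX, 16.9 in 1p vector DOX and 28.2 in 12q DOX. Its NextSeq levels were 27.5 FPKM in 1p No DOX, 33.3 in 1p DOX, 37.9 in 12q No DOX and 28.6 in 12q DOX. The 3 libraries of the 8p clones were thus above the other 3 HiSeq libraries, with or without DOX, and the 1p and 12q clones overlapped.

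DUSP5, a nuclear phosphatase specific to ERK (chr10:112247615-112261292), stood at 42.9 FPKM in 8p No DOX, 92.3 and 85.3 in 8p DOX, 22.7 in 1p DOX, 67.0 in 1p vector DOX and 129 in 12q DOX. The NextSeq table gave 65.6 and 54.0 FPKM for 1p No DOX and DOX, against 297 and 295 for 12q No DOX and DOX. The 12q libraries were highest in both tables. DUSP6, the cytoplasmic ERK phosphatase (chr12:88265968-88270427), was nearly silent. It reached at most 0.367 FPKM in the HiSeq table and 0.654 in the NextSeq table, where both 12q libraries were above both 1p libraries (0.614 and 0.654 against 0.270 and 0.276). It was under the minimum level of 1 FPKM in every comparison and could be tested in none.

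SPRY2 (chr13:79808113-79813087) and SPRY4 (chr5:141670176-141684804) encode Sprouty proteins, which block the signal between receptor and RAF. SPRY2 was at 21.9 FPKM in 8p No DOX, 43.9 and 41.4 in 8p DOX, 10.8 in 1p DOX, 19.1 in 1p vector DOX and 19.6 in 12q DOX. In the NextSeq table it stood at 20.7 and 23.5 FPKM in the 1p clone and 42.2 and 43.6 in the 12q clone. Both 8p DOX libraries were above all other HiSeq libraries, 8p No DOX included. SPRY4 was at 6.40 FPKM in 8p No DOX, 15.0 and 12.7 in 8p DOX, 7.31 in 1p DOX, 18.2 in 1p vector DOX and 13.0 in 12q DOX. Its NextSeq levels were 11.2 and 9.67 FPKM in the 1p clone and 15.9 and 18.5 in the 12q clone. For SPRY4 the 8p DOX libraries lay within the range of the other clones with DOX, and only 8p No DOX fell below it.

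SPRED1 and SPRED2 hold NF1 at the membrane, where it turns RAS off. SPRED1 (chr15:36332344-36436742) was at 6.50 FPKM in 8p No DOX, 6.46 and 6.77 in 8p DOX, 3.55 in 1p DOX, 3.60 in 1p vector DOX and 6.18 in 12q DOX. SPRED2 (chr2:65391489-65513160) varied least of the testable members, with a 1.63-fold range over the HiSeq libraries, from 10.7 FPKM in an 8p DOX library to 17.4 in 12q DOX. In the NextSeq table SPRED1 ranged from 8.70 to 10.6 FPKM and SPRED2 from 19.8 to 22.3. For neither SPRED gene was 8p No DOX below both 8p DOX libraries, as it was for both Sprouty genes.

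ETV4 and ETV5 are ETS factors of the PEA3 group. ETV4 (chr17:38960737-38979288) was at 5.96 FPKM in 8p No DOX, 11.1 and 10.6 in 8p DOX, 9.87 in 1p DOX, 17.9 in 1p vector DOX and 22.3 in 12q DOX. The NextSeq table gave 16.8 and 13.9 FPKM for the 1p clone and 35.6 and 33.1 for the 12q clone. ETV5 (chr3:187246800-187309595) was at 6.76 FPKM in 8p No DOX, 10.2 and 10.1 in 8p DOX, 14.6 in 1p DOX, 14.2 in 1p vector DOX and 18.5 in 12q DOX. For both genes 8p No DOX was the lowest HiSeq library and 12q DOX the highest. The NextSeq levels of ETV5 were 20.4 and 18.9 FPKM in the 1p clone and 24.4 and 28.7 in the 12q clone.

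EGR1, a zinc finger factor of the immediate early response (chr5:137829080-137832903), varied most, with an SD of 1.10 on log2(FPKM + 1) over the 10 libraries once the mean of each table was subtracted. It was at 0.155 FPKM in 8p No DOX, 1.14 and 1.08 in 8p DOX, 1.13 in 1p DOX, 9.09 in 1p vector DOX and 1.97 in 12q DOX. In the NextSeq table it was listed at 0 in 1p No DOX, 0.0568 in 1p DOX, 1.47 in 12q No DOX and 6.24 in 12q DOX. A single library was far above the rest in each table: the vector library and 12q DOX. Of 4 epithelial markers, 3 were highest in that 12q DOX library among the NextSeq libraries, EPCAM at 2.38 FPKM, CDH1 at 1.38 and KRT19 at 0.964, against at most 0.0339, 0.0106 and 0 in the others. The other one, CLDN4, was at 2.06 FPKM there, 2.96 in 12q No DOX and 1.04 and 1.05 in the 1p clone. The 4 epithelial markers summed to 6.78 FPKM there, against 1.06 to 2.96 in the other NextSeq libraries. Their part in the EGR1 level was not tested.

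**Figure D1:**
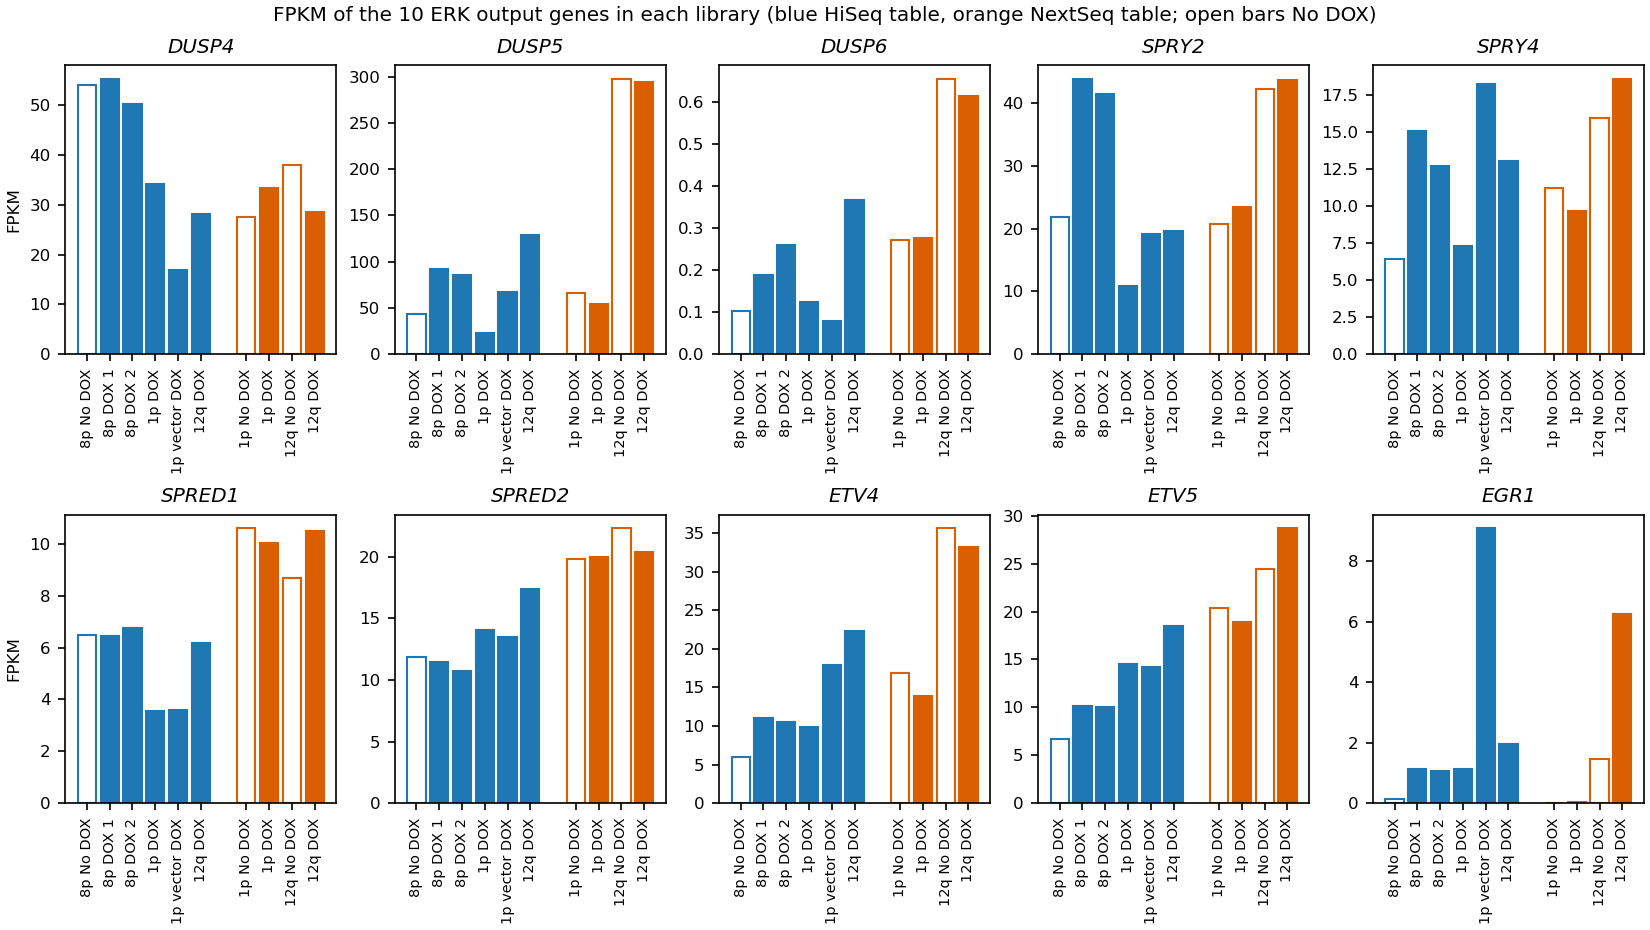
FPKM (vertical axis, linear and starting at 0, with its own scale in each panel) of each ERK output gene in the 6 HiSeq libraries (blue) and the 4 NextSeq libraries (orange), 1 bar a library, open bars for No DOX. DUSP5, SPRY2, SPRY4, ETV4, ETV5 and EGR1 were each lower in 8p No DOX than in both 8p DOX libraries, while DUSP4, SPRED1 and SPRED2 were at like levels in the 3 8p libraries. DUSP6, under 1 FPKM throughout, was also lower in 8p No DOX (0.103 FPKM) than in 8p DOX (0.188 and 0.258).

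Promoter sequences were at hand for 6 of the 10 members (RefSeq, GRCh38.p14). The last 200 bases before the start are shown for EGR1, the member that varied most, and for SPRY2 and SPRY4, which were higher with DOX in the 8p clones. Capitals mark every match, on either strand, of the CArG box (bound by SRF) and of CCGGAA (a form of the ETS site). They also mark TGACG (the core of CREB sites) and TGANTCA (the AP-1 site). Other forms of the ETS site were not searched. No match overlapped another. For SPRY2, the first of the 3 starts listed is shown, and the other starts held no match.
EGR1: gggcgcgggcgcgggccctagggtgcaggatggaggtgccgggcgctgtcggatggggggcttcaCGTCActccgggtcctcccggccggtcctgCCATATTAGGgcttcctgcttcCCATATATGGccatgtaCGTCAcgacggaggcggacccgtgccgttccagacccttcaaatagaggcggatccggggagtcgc
SPRY2: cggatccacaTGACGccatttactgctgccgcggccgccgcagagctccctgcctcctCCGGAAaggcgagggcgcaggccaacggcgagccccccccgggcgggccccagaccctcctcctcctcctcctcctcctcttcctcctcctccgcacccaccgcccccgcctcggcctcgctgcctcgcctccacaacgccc
SPRY4: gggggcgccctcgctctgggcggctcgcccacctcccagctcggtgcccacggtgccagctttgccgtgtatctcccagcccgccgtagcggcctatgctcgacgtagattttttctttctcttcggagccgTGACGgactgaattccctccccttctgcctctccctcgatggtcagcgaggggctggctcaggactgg
The EGR1 stretch is chr5:138465279-138465478 on the plus strand, that of SPRY2 chr13:80341127-80341326 and that of SPRY4 chr5:142324248-142324447, both on the minus strand. EGR1 held 2 CArG boxes, 105 and 83 bases before the start, a motif found in 1.16% of the 35116 promoters of 250 bases. TGACG was found for 3 of the 6 members, EGR1, SPRY2 and SPRY4, and in 21.2% of all promoters. A member was counted when any of its starts had a match, while the shares are over single promoters. CCGGAA was found in SPRY2 alone, against 14.5% of promoters, and TGANTCA in none of the 6, against 6.57%. These matches are letters in a window and say nothing of which factor was bound.

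In the 8p clones 5 of the 8 testable members were higher with DOX than without: DUSP5, SPRY2, SPRY4, ETV4 and ETV5. In FPKM the rise was 2.16-fold for SPRY4, 2.07-fold for DUSP5, 1.94-fold for SPRY2, 1.82-fold for ETV4 and 1.5-fold for ETV5, and no member was called lower. The phosphatase DUSP4 and the inhibitors SPRED1 and SPRED2 did not pass the test. Across all 11301 genes tested, 12.9% were higher and 22.4% lower at an adjusted p under 0.05. In whole cultures, a gene that is lower in every cell and a gene that is off in a part of the cells cannot be told apart.

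For DUSP5 the difference was 1.03 on log2(FPKM + 1), with an SE of 0.0905 and an adjusted p of 0.00524 (limma, Benjamini-Hochberg over all genes tested). SPRY2 differed by 0.93 (adjusted p = 0.00524 by limma) and SPRY4 by 1.00 (adjusted p = 0.00679). The ETS factors rose less, ETV4 by 0.77 (adjusted p = 0.00627 by limma) and ETV5 by 0.52 (adjusted p = 0.00968). The 2 DOX libraries lay close together for each of these genes, so that the rise was 1.09 and 0.98 for DUSP5 and 0.53 and 0.52 for ETV5 when either was set against 8p No DOX alone. DUSP4 differed by −0.04, with a 95% interval from −0.27 to 0.20, SPRED1 by 0.02 (−0.18 to 0.22) and SPRED2 by −0.09 (−0.30 to 0.12). The upper bounds of these 3 genes lay below the rise of DUSP5. The intervals hold only the spread of the 2 DOX libraries, since a lone No DOX library has none, so they cannot exclude such a rise.

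EGR1 was under the minimum level in the 8p clones and had no test. It went from 0.155 FPKM to 1.14 and 1.08, the same direction as the 5 genes that rose. The median difference was 0.64 over the 8 members tested and −0.06 over all genes. All of these values rest on 1 No DOX library of 1 clone, so what is particular to that library or to the other 8p clone and what came with DOX cannot be told apart, and the spread comes from the 2 DOX clones with 1 residual degree of freedom. With no minimum level, the adjusted p of the 5 genes was 0.0923 to 0.0931 by limma and none was called. With each library shifted to a common median, the 1456 higher and 2526 lower genes became 2168 and 2051.

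**Figure D2:**
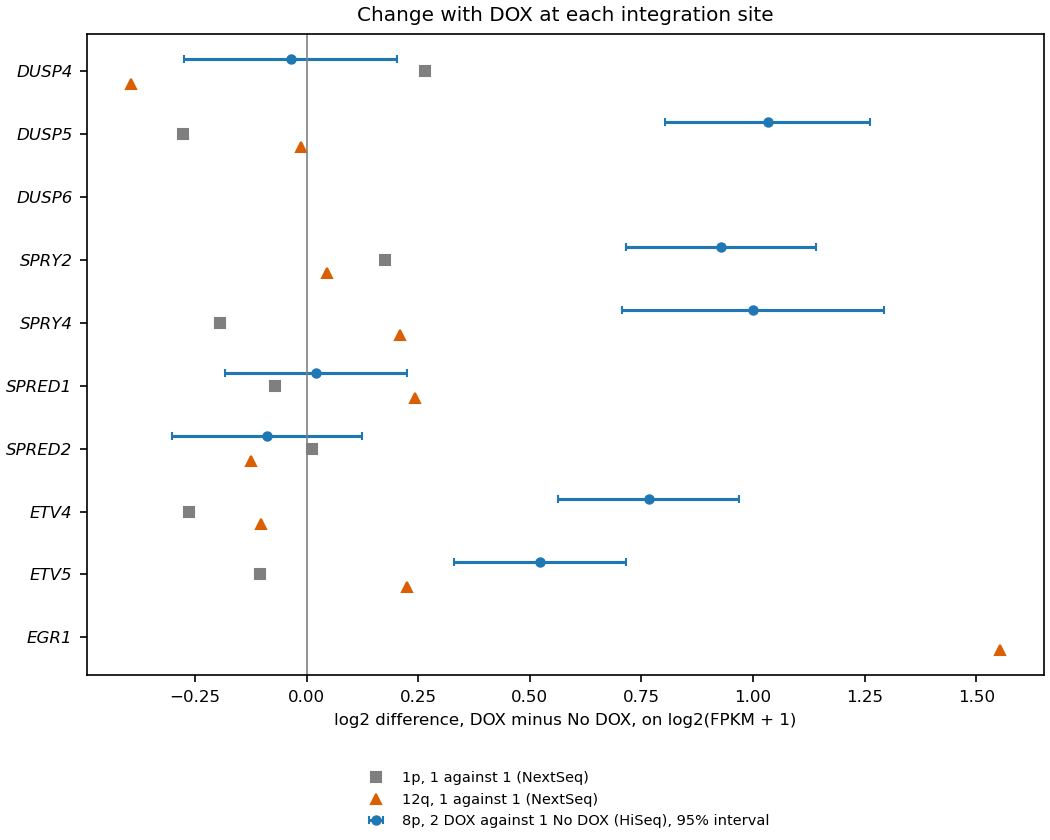
Change with DOX of each gene (horizontal axis, log2 difference, DOX minus No DOX, on log2(FPKM + 1)), in the 8p clones with the 95% interval (circles), the 1p clone (squares) and the 12q clone (triangles), where 1 library stood against 1. DUSP5, SPRY2, SPRY4, ETV4 and ETV5 lay between 0.52 and 1.03 in the 8p clones and between −0.28 and 0.23 in the 1p and 12q clones.

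In the NextSeq table, where 1p and 12q libraries with and without DOX were fitted together, no member passed the test for DOX. Of the 8 members with a mean of at least 1 FPKM both with and without DOX 0 were called by limma. Of all 11397 genes 1 was (0.00877%), with 746 genes at an unadjusted p under 0.05. The interval was −0.36 to 0.07 for DUSP5, −0.07 to 0.29 for SPRY2, −0.30 to 0.32 for SPRY4, −0.38 to 0.02 for ETV4 and −0.21 to 0.33 for ETV5. Each upper bound lies below the difference of the same gene in the 8p clones, which was measured in the other table. EGR1 entered this fit only because it was high with DOX, a mean of 3.15 FPKM against 0.733 without. Its values are a description with no test.

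Within the 1p clone, 0 of 8 members moved past 1.5-fold on log2(FPKM + 1), where 1.1% of all genes did. The largest shifts were those of DUSP5 (−0.28), DUSP4 (0.27) and ETV4 (−0.26). Within the 12q clone, 1 of 9 members did, EGR1 by 1.55, where 3.08% of all genes moved past that size. The EGR1 rise is between the 12q library with epithelial markers and the one without EPCAM, CDH1 or KRT19. DUSP5, the most abundant member, was level in the 12q clone (−0.01). These are single libraries, and no test was made.

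Of the 8 members with a mean of at least 1 FPKM in both clones of the NextSeq table, 5 were called between them, each higher in the 12q clone than in the 1p clone: DUSP5, SPRY2, SPRY4, ETV4 and ETV5. Among these DUSP5 differed most, with a mean of 296 ± 1.98 FPKM against 59.8 ± 8.20 (SD, n = 2 libraries a clone, one with and one without DOX), a 4.95-fold difference. None was called lower, and DUSP4, SPRED1 and SPRED2 again did not pass. Of all 11397 genes, 17.9% were higher and 15% lower in the 12q clone at an adjusted p under 0.05.

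On log2(FPKM + 1) the clones differed by 2.29 for DUSP5 (adjusted p = 0.000977 by limma), by 1.12 for ETV4 (0.00342) and by 0.93 for SPRY2 (0.00394). SPRY4 differed by 0.67 (adjusted p = 0.0190 by limma), and ETV5 by 0.41 (0.0403). Both 12q libraries were above both 1p libraries for each of these genes, with DOX or without, and also for SPRED2, which was not called. How many of all genes separate so was not counted. EGR1 entered the fit only because it was high in the 12q libraries, a mean of 3.85 FPKM against 0.0284 in the 1p clone, so its values are a description with no test, and without 12q DOX it fell under the minimum level. The interval was −0.32 to 0.56 for DUSP4, −0.38 to 0.17 for SPRED1 and −0.10 to 0.29 for SPRED2.

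The median difference between the 12q and 1p clones was 0.54 over these 8 members and 0.02 over all genes. DUSP5, SPRY2 and ETV4 were called under all alternatives tried. ETV5 was not called with libraries shifted to a common median (adjusted p = 0.0576 by limma), nor without the 12q DOX library (0.0600). SPRY4 and ETV5 were not called with no minimum level (adjusted p = 0.0667 and 0.101 by limma), nor without 1p DOX or without 1p No DOX, when 3 members and 322 or 341 genes passed. Of 3 endothelial markers, CDH5 was at 7.06 and 5.70 FPKM in the 12q libraries and at 0.0545 and 0.0447 in the 1p libraries, PECAM1 was lower in the 12q libraries (0.628 and 0.534 against 0.767 and 0.796), and VWF was at most 0.394. The part of these markers in the levels of the ERK genes was not tested.

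**Figure D3:**
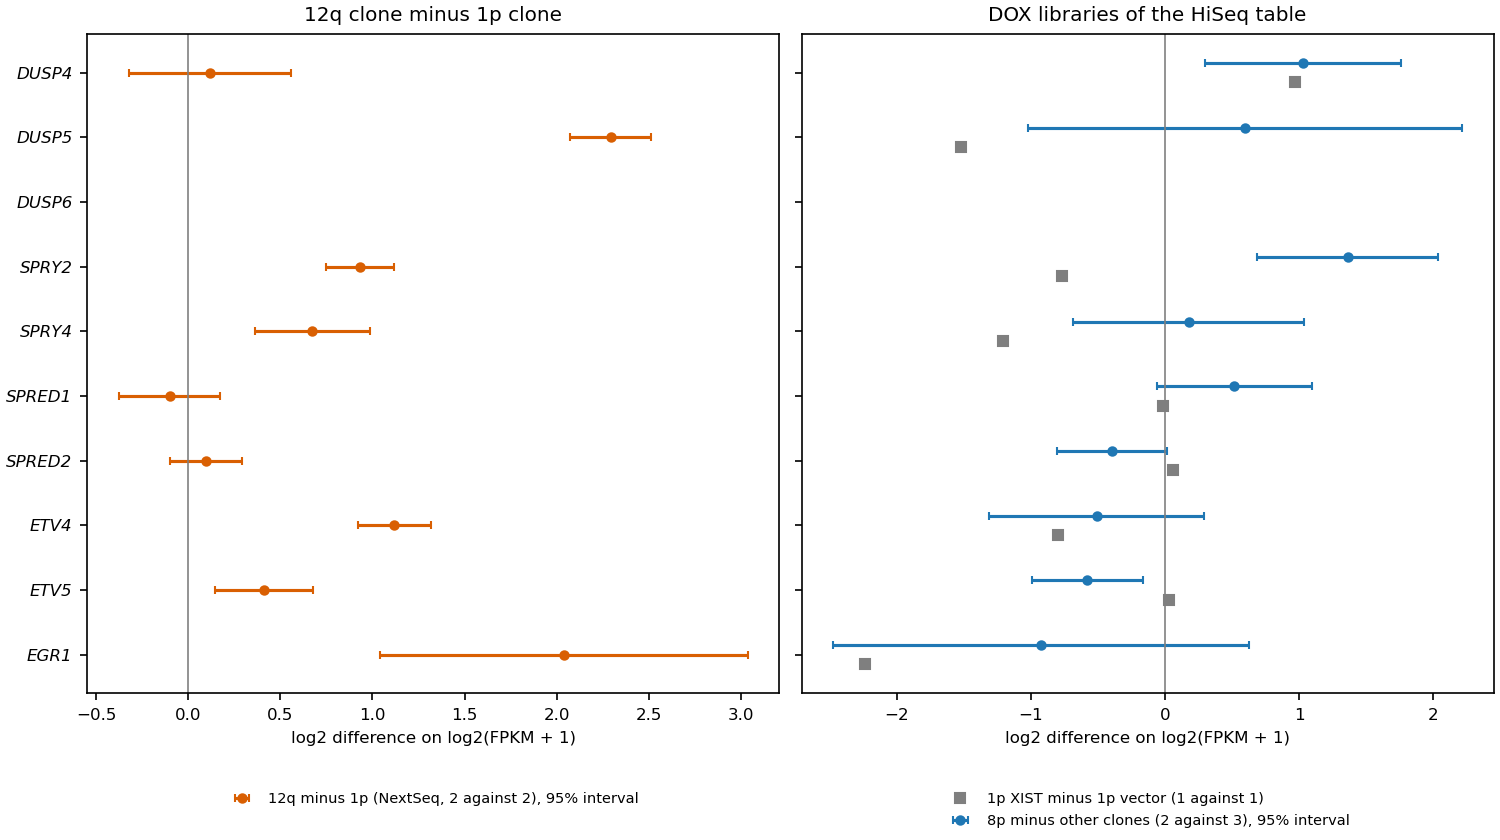
Differences between clones (horizontal axes, log2 difference on log2(FPKM + 1)): left, 12q minus 1p in the NextSeq table; right, 8p minus the other 3 DOX libraries (circles) and 1p XIST minus 1p vector (squares) in the HiSeq table; lines are 95% intervals and squares are 1 library against 1. DUSP5 lay at 2.29 in the left panel, and the 8p intervals on the right were wide, from −1.02 to 2.22 for DUSP5. In the left panel EGR1 entered the fit only through the 12q libraries, so its interval is not read as a test.

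When all cells had DOX, no member passed the test between the 8p clones and the other clones. Of the 9 testable members 0 were called, where 1.41% of all 11352 genes were (160 by limma, and 2881 at an unadjusted p under 0.05). SPRY2 came nearest, with a mean of 42.7 ± 1.72 FPKM in 2 8p libraries against 16.5 ± 4.96 in the 3 other libraries (SD), a log2 difference of 1.36 (95% interval 0.69 to 2.04, adjusted p = 0.0729 by limma). DUSP4 was at 52.8 ± 3.50 against 26.4 ± 8.74 FPKM, a difference of 1.03 (0.30 to 1.76, adjusted p = 0.118 by limma). Both 8p libraries lay above all 3 others for SPRY2, DUSP4 and SPRED1, and below all of them for SPRED2 and ETV5. The share of all genes that separate in this way was not counted.

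ETV5 was on the low side, with 10.1 ± 0.0712 FPKM in the 8p libraries and 15.8 ± 2.39 in the others, a difference of −0.58 (−0.996 to −0.165, adjusted p = 0.119 by limma). The median of all genes was 0.19 above 0, and relative to it ETV5 was lower and SPRY2 and DUSP4 nearer to the rest. With libraries shifted to a common median ETV5 was called at −0.77 (adjusted p = 0.0480 by limma), and the 115 higher and 45 lower genes became 113 and 138. Without the 12q library SPRED1 was called at 0.73 (adjusted p = 0.0488 by limma) and 700 genes passed. DUSP5, SPRY4, ETV4 and EGR1 spread so widely among the other 3 libraries that a difference of 1 on the log2 scale lay within their intervals.

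The 1p library with XIST was set against the 1p library with the empty vector, both with DOX. Of 9 members 5 were lower in the XIST library past 1.5-fold: EGR1 (−2.24 on log2(FPKM + 1)), DUSP5 (−1.52), SPRY4 (−1.21), ETV4 (−0.80) and SPRY2 (−0.77). Of all 11111 genes, 7.89% were lower and 13.4% higher by that size. DUSP4 alone among the members was higher, by 0.97, and SPRED1, SPRED2 and ETV5 lay within 0.06 of 0. The median was −0.77 over the members and 0.09 over all genes. The pair is 1 library against 1 with no test, and clone, XIST and library cannot be told apart. With libraries shifted to a common median, 1490 higher and 877 lower genes became 1128 and 1134.

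Other genes of the pathway were counted in 3 lists: relatives of the members (14 genes), further ERK targets (12) and the cascade with its regulators (24). With DOX in the 8p clones, 2 of 6 relatives with at least 1 FPKM in both states rose and none fell, and DUSP8, at 1.82 FPKM in 8p No DOX and at 0.861 and 0.912 with DOX, entered the fit only through the No DOX library. DUSP1, a phosphatase of the immediate early response, went from 11.3 to 20.6 and 18.6 FPKM (0.74, adjusted p = 0.00764 by limma), and SPRED3 by 0.78. Of 9 further targets 3 rose and none fell, among them PHLDA1 (from 104 to 203 and 187 FPKM, 0.90, adjusted p = 0.00627 by limma) and JUNB (0.57). Of the 24 cascade genes 2 rose and 5 fell, beside 12.9% and 22.4% of all genes, and HRAS fell by 0.75. The median difference was 0.21 for these relatives, −0.03 for the targets and −0.05 for the cascade, beside −0.06 over all genes.

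Between the 12q and 1p clones, 3 of 6 relatives were called higher and none lower, with DUSP16 at 1.05, DUSP1 at 0.91 and DUSP10 at 0.27. Of 9 further targets with at least 1 FPKM in both clones 1 was higher and 3 lower, beside 17.9% and 15% of all genes. CCND1, the cyclin that ERK drives in G1, was lower in the 12q clone, at 82.9 and 68.6 FPKM against 184 and 175 (−1.24, adjusted p = 0.00282 by limma), against the direction of DUSP5. Of 23 such cascade genes 5 were higher and 3 lower, shares near those of all genes, among them RPS6KA1, a kinase that ERK activates (0.67), and RASA1, which turns RAS off (−0.98). FOS and KSR1 entered the fit only through the 12q libraries, FOS at 1.36 and 2.28 FPKM against 0.511 and 0.355 and KSR1 at 2.96 and 2.34 against 0.804 and 0.967, and were not counted.

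No gene of the 3 lists was called with DOX in the NextSeq table by limma. In the DOX comparison of the 8p clones with the others PHLDA1 alone was called, at 203 and 187 FPKM against 55.8 to 79.4 (1.61, adjusted p = 0.0346 by limma). Of all genes 1.41% were called there. Between the 1p XIST and vector libraries, 2 of 5 relatives were past 1.5-fold, both lower in the XIST library (DUSP10 by −1.48 and DUSP1 by −1.24). Of 10 targets 3 were higher and 4 lower, and of 24 cascade genes 3 were higher, HRAS at 0.90 the most. Of all genes 13.4% were higher and 7.89% lower by that size, so the cascade count is near the share of all genes.

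DUSP4 is the one member on the arm that carries the transgene in the 8p clones, 22.7 Mb from AGPAT5. Of the 128 tested genes of 8p, 66 were lower and 5 higher with DOX, with a median of −0.30, while DUSP4 stood at −0.04. Of these genes 95 of 128 had a lower difference than DUSP4. Within 10 Mb of DUSP4 the median was −0.33 over 79 tested genes, of which 43 were lower and 2 higher. The nearest tested gene on either side was KIF13B (0.21) and TMEM66 (−0.13), neither of them called, and both were named after their values were seen. DUSP4 was thus not among the genes of the arm whose FPKM was lowered. FPKM add up both alleles, and the study names DLC1 and STC1 as silenced on an allele with no fall in their total. The alleles of DUSP4 were not examined here. A shift to a common median moves DUSP4 to 0.04.

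**Figure D4:**
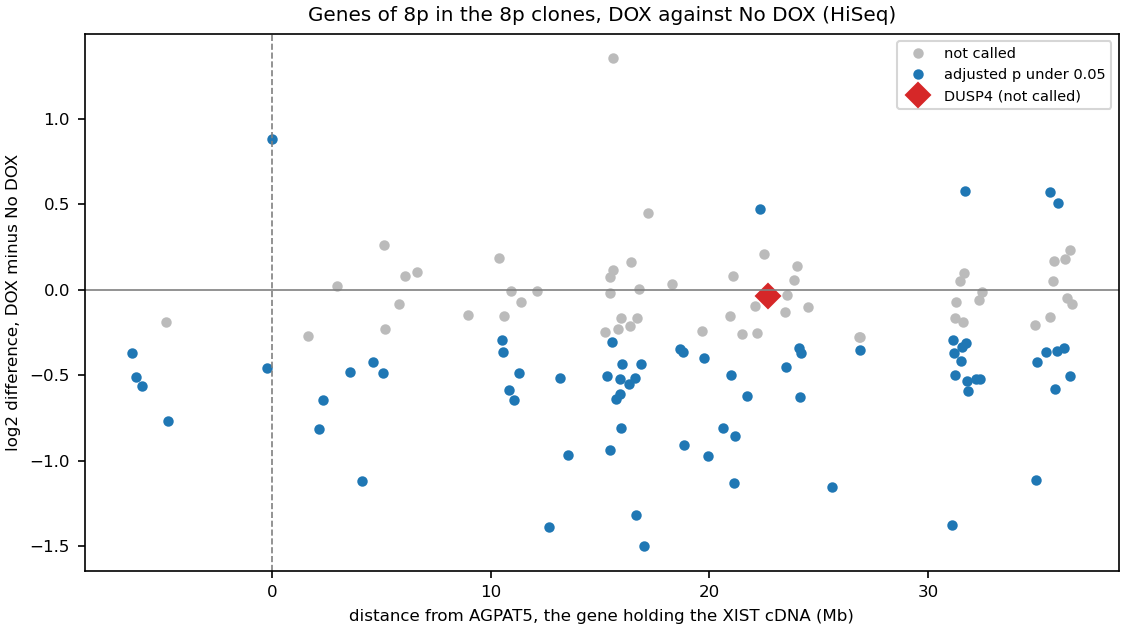
Log2 difference, DOX minus No DOX, in the 8p clones (vertical axis) of the 128 tested genes of 8p against their distance in Mb from AGPAT5, the gene that holds the XIST cDNA (horizontal axis), with called genes in blue and others in grey. DUSP4 (diamond) lay at −0.04, with 95 of the 128 genes below it.

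For the genes that rose in the 8p clones, the neighbours on their own chromosomes stayed near the median of all genes (−0.06). The median over tested genes within 10 Mb was −0.05 for DUSP5 (85 genes), −0.12 for SPRY2 (18 genes), −0.11 for SPRY4 (123 genes), −0.04 for ETV4 (210 genes) and −0.11 for ETV5 (67 genes). Around ETV5 the neighbours did move with the gene in the comparison of 8p with the other clones under DOX: their median was −0.26 over 71 genes, 0.45 below that of all genes. Around SPRY2 the same held between the 1p XIST and vector libraries, with a median of −0.45 over 16 genes, 0.54 below all genes. In those 2 comparisons the shift of the region was not separated from that of the gene. DUSP6 lies 20.4 Mb from FAM222A, the host gene of the 12q integration, and was too low to compare.

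The genes closest to EGR1 in pattern over the 10 libraries, among 6905 genes of at least 5 FPKM on average in both tables, were SDC3, PIM1 and the small nucleolar RNA SNORA8. The root mean square difference from EGR1, on log2(FPKM + 1) with each table's mean subtracted, was 0.61 for SDC3, 0.64 for PIM1 and 0.64 for SNORA8, where a gene with no variation would stand at 1.04. SDC3 was highest in 1p vector DOX (11.4 FPKM) in the HiSeq table and in the 12q clone (8.83 and 8.00) in the NextSeq table. The likeness is thus loose and is a description of 10 libraries.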

How the data were processed

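RNA was measured in 10 libraries from poly(A)-selected, strand-specific preparations. The values deposited by the authors are FPKM from Cufflinks after alignment by TopHat and Bowtie (build hg18), in a table of 6 HiSeq and another of 4 NextSeq libraries. Versions, the annotation and the use of strand in counting are not given in the sources used here, and the depth is unknown, so no interval or floor from depth is given. Left out were lines with a repeated symbol (739 HiSeq, 882 NextSeq), 22 symbols a table that had become dates, and 2 empty NextSeq entries. The ChIP-seq samples were not analysed here.

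The members and lists were chosen with earlier results of these data known. All 10 members were named in every comparison; of the 3 other lists, at most 3 called genes with the largest difference were named per comparison. Values were tested as log2(FPKM + 1) with limma 3.58.1 in R 4.3.3 (lmFit, eBayes with trend, two-sided, Benjamini-Hochberg over all genes with a mean of at least 1 FPKM in the comparison, threshold 0.05). Folds on this scale understate changes of low genes. Pairs of single libraries had no test and were called past 1.5-fold. DOX was a term of the 12q against 1p fit. Other steps used Python 3.11.15. The fits were tested on simulated data, where each made more false calls than the nominal share in some draws, and those with 1 residual degree of freedom did so at the median draw. By the study's methods the 8p DOX libraries are 2 clones, so their spread is that between clones. For the other libraries nothing says that they came from separate cultures, and p-values measure only the spread between these libraries. Genes that reached the minimum level in 1 arm alone were left out of the counts by list. Alternatives were other minimum levels, another pseudocount, libraries shifted to a common median, added or left out libraries and no DOX term. Promoters are the 250 bases before RefSeq starts on GRCh38.p14.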

Additional observations from a re-analysis of the deposited data

Results flagged for a closer look

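A group of 7 members was picked out because the change with DOX went one way in all libraries of 1 integration site and the other way at another. Each change was computed within its own table on log2(FPKM + 1), and none of these 7 differences was tested. The rule used only the sign of each change, however small. How many of all genes meet it was not counted, so the count of 7 says nothing particular about the members. For DUSP5 the change in the 8p clones exceeded the mean of the 1p and 12q clones by 1.18, and for ETV4 by 0.95. In both genes the 8p change was a rise and the single pairs of the 1p and 12q clones were below 0. For DUSP5 the 12q pair was nearly level (−0.01). It stood at 0.05 with libraries shifted to a common median, where DUSP5 would not have been picked out. The 8p change was measured in the HiSeq table and the others in the NextSeq table, so that clone and instrument cannot be told apart.

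The other 5 set the 12q clone against the 1p clone, 1 pair of libraries each. The change of the 12q clone minus that of the 1p clone was −0.66 for DUSP4, 0.40 for SPRY4, 0.31 for SPRED1, −0.14 for SPRED2 and 0.33 for ETV5. DUSP4 went up in the 1p clone and down in the 12q clone (0.27 and −0.39). With 1 library in each state there is no spread to set these values against.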

How the results depend on the processing

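No paired analysis was possible because, by replicate number, fewer than 2 numbers recur between the groups. The NextSeq DOX fit has the clone as a term instead. In the 8p clones, the 5 members that rose with DOX kept their direction under all alternatives. With no minimum level 0 members and 21 genes were called, against 5 and 3982. For 12q against 1p, no minimum level gave 3 members and 1971 genes, against 6 (EGR1 included) and 3742, and leaving out each library with no DOX term gave 3 to 6 members and 322 to 3758 genes (322 without 1p DOX, 341 without 1p No DOX). With DOX over both clones, no minimum level gave 0 genes, against 1. For 8p against other clones under DOX, 160 genes became 587 with 8p No DOX added, 251 with a common median (1 member, ETV5) and 95 at a minimum of 5 FPKM, and leaving out each library gave 5 to 700 genes and 0 to 1 member. With a pseudocount of 0.1, the single pairs gave 230 genes in the 1p clone, against 122, and 597 in the 12q clone, against 352. A common median changed the split of the latter from 129 higher and 223 lower to 147 and 142. Among members that were not called, signs turned for SPRY4 for 8p against others (−0.157 with 8p No DOX added, −0.0156 with a common median, −0.151 to 0.453 leaving out each library, the lowest without 1p XIST DOX), DUSP5 there (−0.0659 without 1p XIST DOX to 1.16 without 12q DOX), DUSP4 in 8p with DOX (0.0352 with a common median, 0.0310 without 8p DOX replicate 2) and SPRED1 there (−0.00876 without that replicate), DUSP5 in 12q with DOX (0.0539), SPRED2 (−0.0256) and ETV5 (−0.0486) in 1p XIST against vector, all 3 with a common median, and in 12q against 1p DUSP4 (−0.0789 without 12q No DOX, −0.0143 without 1p No DOX) and SPRED1 (0.0195 without 12q No DOX). The causes were not tested. Without a DOX library, the 8p comparison had no test, and the DOX term could not be fitted with a NextSeq library left out.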
